A study of Rattus norvegicus with 18 samples.

Results

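Lungs taken 20 h after the last smoking session were compared with lungs taken 6 h after it, with sham-exposed and smoke-exposed rats side by side. The comparison uses the 12 arrays titled with a 6 h or 20 h recovery, of 18 in the series. The samples are lung tissue of male Sprague-Dawley rats, and their RNA was read on 2 types of Affymetrix array, A and B, whose probe sets are largely distinct. Exposure was nose-only, to sham or to mainstream smoke of a reference cigarette at 300 or 600 µg/l of TPM (total particulate matter), and lasted 13 weeks with 2 h of exposure on each of 5 days per week. Each of sham, 300 µg/l and 600 µg/l had 1 array of each type at 6 h and 1 at 20 h, so there were 3 arrays against 3 on each type, matched by exposure. The number of animals behind an array and the clock time at which lungs were taken are not given in the labels used here. No condition had a replicate array, so every p-value rests on the spread between arrays of different conditions, and precision is limited by how few arrays there are.

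The labels disagree for 4 samples, the smoke samples at 20 h on both array types. Their titles and source names give the smoke concentration, and a further label says sham. They were grouped by title. Chia, an acidic chitinase of airway and macrophage origin, had at 20 h signals of 1643 in the sham array, 4857 at 300 µg/l and 7358 at 600 µg/l. At 6 h its signals were 1798, 5630 and 8641 in the same order. Cd68, a macrophage lysosomal protein, read 1105.5, 1770.3 and 2672 at 20 h and 1026, 2104 and 2440.3 at 6 h. Both genes were high in the 20 h arrays titled smoke and low in the one titled sham. The plain mean of the 20 h arrays minus that of the 6 h arrays does not use the exposure labels. The matching by exposure, the test of that difference and the separate sham and smoke courses all rest on the titles.

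Signals are the authors' MAS5 intensities, which have no unit and cannot be compared between probe sets. A course means the log2 difference of 20 h minus 6 h within 1 exposure, on the scale log2(signal + 50), and a fold is 2 raised to such a difference. The sham course is 1 array against 1 array and has no test. The smoke course is the mean of the 300 and 600 µg/l courses. It was tested with limma, and so was its difference from the sham course, against the spread between the 300 and 600 µg/l arrays within a time, a spread that holds no variation of sham arrays. The mean of all 3 courses was tested against the spread left after exposure and time are fitted over the 9 arrays of a type. Adjusted p-values are limma's with Benjamini-Hochberg adjustment over 19638 probe sets, and a call means an adjusted p under 0.05. Each had at least 3 of 9 arrays at or above a filter signal, 183.8 on type A and 238.7 on type B, and levels under it are dim. Those probe sets named 10165 genes, and in lists of genes each gene is represented by its brightest probe set.

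Polycyclic aromatic hydrocarbons in tobacco smoke bind the aryl hydrocarbon receptor (AhR), a transcription factor that switches on cytochrome P450 genes such as Cyp1a1, and electrophiles in smoke activate NRF2, which switches on glutathione and quinone-reducing enzymes. The lung also has its own circadian clock. In it, BMAL1 with CLOCK or NPAS2 drives the Per, Cry and Rev-erb (Nr1d1, Nr1d2) genes through E-box sequences, the PER and CRY proteins repress that drive, and the REV-ERB proteins repress Bmal1 and Npas2 through ROR elements. Dbp, Tef and Hlf are clock-driven PAR bZIP factors, and Nfil3 opposes them. These genes are known to change over the day in lung.

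No gene passed the test of 20 h against 6 h over all 3 exposures. The calls were 0 probe sets higher (0%) and 0 lower (0%), and the smallest adjusted p was 0.31, for a probe set with no gene name. At an unadjusted p under 0.05 there were 443 higher (2.26%) and 438 lower (2.23%), 881 in all (4.49%). The 3 arrays at 20 h lay all above the 3 at 6 h for 748 probe sets (3.81%) and all below for 899 (4.58%), 1647 in all (8.39%). The median mean difference over all measured genes was -0.004 on the log2 scale, and over the 36 gene lists the medians ran from -0.38 to 0.23. The exposures were then taken separately. In the sham course 149 probe sets (0.759%) were at least 1 log2 unit higher at 20 h and 128 (0.652%) at least 1 lower. In the 300 µg/l course these were 98 (0.499%) and 116 (0.591%), and in the 600 µg/l course 118 (0.601%) and 99 (0.504%). Both smoke courses were at least 1 higher for 8 probe sets (0.0407%) and at least 1 lower for 11 (0.056%). The smoke course gave 5 calls (0.0255%), 1 higher (0.00509%) and 4 lower (0.0204%), with 833 (4.24%) at an unadjusted p under 0.05. Its difference from the sham course gave 1 call (0.00509%).

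Both named calls of the smoke course were enzymes that smoke induces, and both fell between 6 h and 20 h. Cyp1a1, the P450 that oxidises aromatic hydrocarbons and the standard readout of AhR activity, had at 6 h signals of 111 in the sham array, 2789 at 300 µg/l and 2122 at 600 µg/l. At 20 h the signals were 102, 209 and 207 in the same order. The smoke arrays were far above sham at 6 h and much closer to it at 20 h, though still above, and the sham arrays differed little. Cyp1a1 fell by 3.27 on the log2 scale in the smoke course (SE 0.13, n = 2 arrays per time, adjusted p = 4.8e-05), which is 9.62-fold lower. Over the alternatives the smoke course ran from -3.47 to -2.69. The sham course of Cyp1a1 was -0.08. Both of its sham values were under the filter signals of both types, so this course compares dim values. The difference between the courses was -3.18 (SE 0.23, adjusted p = 0.0064), the only call of that test, and its size depends on the pseudocount. That call was lost without the signal filter (adjusted p = 0.093) and with the 6 h and 20 h arrays alone (0.08). Neither setting can move the value itself, which was -3.18 in both. The call was also lost without either smoke array at 20 h, with values of -3.19 without 300 µg/l and -3.18 without 600 µg/l.

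Nqo1, a quinone reductase that both AhR and NRF2 switch on, read 1394 in the sham array, 3478.5 at 300 µg/l and 3557 at 600 µg/l at 6 h. At 20 h it read 1389, 1413 and 1616. The smoke arrays thus came down to 1413 and 1616, beside 1389 in sham. Nqo1 fell by 1.19 in the smoke course (SE 0.12, adjusted p = 0.03), 2.29-fold, a call that was lost in 8 alternatives, among them without each smoke array in turn (adjusted p = 0.14 and 0.16 without 300 and 600 µg/l at 6 h, 0.32 and 0.095 without them at 20 h). The difference from the sham course was -1.19 (SE 0.21, adjusted p = 0.31). The other 3 calls of the smoke course were probe sets with no gene name, of which 2 fell and 1 rose.

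**Figure D1:**
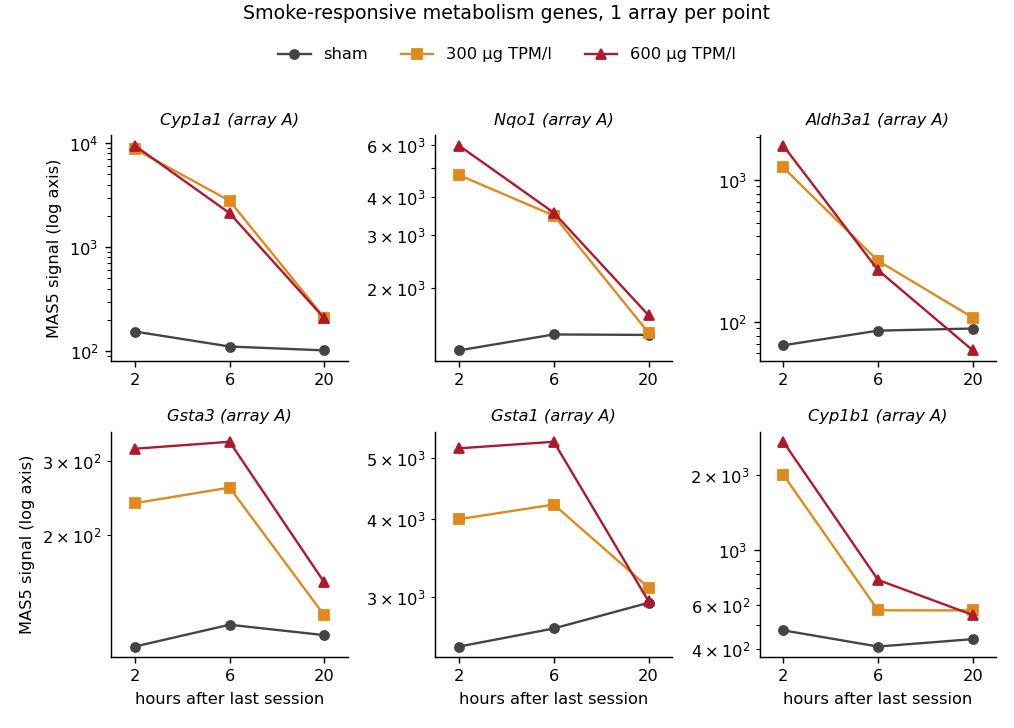
MAS5 signal on a log axis (y) of 6 smoke-responsive metabolism genes at 2, 6 and 20 h after the last session (x, evenly spaced), with 1 array per point and lines joining the arrays of 1 exposure. The smoke arrays of Cyp1a1 drop from 2789 and 2122 at 6 h to 209 and 207 at 20 h. Those of Nqo1 come down closer to the sham array and stay above it.

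Of the 9 genes on the AhR list, 7 were measured. In the smoke course 2 of them, Cyp1a1 and Nqo1, passed the test, against 2 of all 10165 genes. The list's median course was 0.09 in sham, -0.47 at 300 µg/l and -0.83 at 600 µg/l. Aldh3a1, an aldehyde dehydrogenase of the AhR battery, had at 6 h signals of 86.8 in the sham array, 269.5 at 300 µg/l and 232 at 600 µg/l. At 20 h these were 89.8, 107 and 63, all under the filter signal of 183.8, as was the sham array at 6 h, so no order is read among them. Its smoke course was -1.17 and did not pass (adjusted p = 0.56). Cyp1b1, a related P450, was at 6 h at 408 in the sham array, 571 at 300 µg/l and 757 at 600 µg/l. At 20 h the values were 437, 570.4 and 547, while at 2 h the smoke arrays had read 2008 and 2725. Most of the distance to sham that Cyp1b1 showed at 2 h was thus gone at 6 h, and for Cyp1a1 and Nqo1 the smoke arrays were still well above sham then. Tiparp, an AhR-induced ADP-ribosyltransferase, had courses of 0.17, -0.13 and 0.11 in sham, 300 and 600 µg/l. Ahrr, the AhR repressor, had 0.19, -0.47 and 0.07.

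Of the glutathione transferases on the NRF2 list, Gsta3 and Gsta1 had the same layout with smaller values, and neither passed. Gsta3, an alpha-class transferase, read 122 in the sham array, 259.5 at 300 µg/l and 334 at 600 µg/l at 6 h. At 20 h it read 115.5, 129 and 154, with both smoke arrays below their 6 h values. All 3 of these and the sham array at 6 h were under the filter signal, and the probe set passed the filter through its smoke arrays at 2 h and 6 h. The smoke course was -0.85 (adjusted p = 0.75). Gsta1 read 2675, 4211 and 5298 at 6 h and 2939, 3107 and 2955 at 20 h in the order sham, 300 and 600 µg/l. Its 3 arrays at 20 h lay within 2939 to 3107, where the 6 h arrays had been spread by exposure. Gstp1, the pi-class transferase, had courses of -0.10, -0.68 and -0.30. Genes of 1 transferase class are close in sequence, and their probe sets may share signal. Of the 33 measured genes of the NRF2 list, 0 passed in the comparison of all exposures, 2 were higher and 5 lower at an unadjusted p under 0.05, beside 232 higher and 232 lower of all 10165 genes, and the median was -0.10. The difference between courses was negative at that level in 6 of the 33 and positive in 0, beside 320 and 300 of all genes. The higher ones were Taldo1, a pentose phosphate enzyme (log2 0.24), and the transferase Gstm2 (0.28). The lower ones were Gstp1, Gsta3, Nqo1, Gsta1 and the transketolase Tkt (-0.27). Hmox1, heme oxygenase, had courses of -0.25, -0.66 and 0.13.

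Several clock genes differed between 6 h and 20 h in one direction in sham and in the other at 600 µg/l. In sham, Nr1d1, Nr1d2, Dbp, Tef, Per1 and Per3 were higher at 6 h than at 20 h, and at 600 µg/l they were lower at 6 h than at 20 h. The 300 µg/l arrays lay as the 600 µg/l ones for these genes except Dbp, with the times closer together. Bmal1 and Cry1 lay the other way round in sham and at 600 µg/l. Npas2 was higher at 20 h in all 3 exposures. None of these differences passed the adjusted test, and each sham course is 1 array at each time. Nr1d1, Nr1d2 and Dbp did pass when either smoke array at 6 h was left out, with adjusted p = 0.0039 for each without 300 µg/l and 0.019, 0.028 and 0.028 without 600 µg/l, and Per3 passed without 300 µg/l at 6 h (0.013). Such a fit has 1 smoke array at 6 h, takes its spread from the 300 and 600 µg/l arrays at 2 h and 20 h alone, and leaves out the distance between the concentrations at 6 h, so it is no support for a difference.

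Nr1d1 encodes REV-ERB alpha, the nuclear receptor that represses Bmal1. Its signals at 6 h were 1522.5 in the sham array, 496.5 at 300 µg/l and 149 at 600 µg/l. At 20 h they were 179, 679.7 and 909.7. The order of the exposures at 6 h was turned round at 20 h. The sham course was 6.86-fold lower at 20 h (log2 -2.78), the 300 µg/l course 1.34-fold higher (0.42) and the 600 µg/l course 4.83-fold higher (2.27). The smoke course exceeded the sham course by 4.12 (SE 0.66), and this did not pass (adjusted p = 0.21). Nr1d2, its paralog REV-ERB beta, read 1507 in the sham array, 978 at 300 µg/l and 523 at 600 µg/l at 6 h and 349.7, 1074 and 1288 at 20 h. It had the same reversal of order, with a difference between courses of 2.64 (SE 0.40, adjusted p = 0.21), and a second Nr1d2 probe set gave 2.58 (adjusted p = 0.068).

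Dbp, the PAR bZIP activator at the output of the clock, had at 6 h signals of 1303 in the sham array, 568 at 300 µg/l and 203 at 600 µg/l. At 20 h these were 119.6, 484 and 668.5. The sham array was the highest of the 3 at 6 h and the lowest at 20 h, 7.98-fold apart, and the 600 µg/l array was 2.84-fold higher at 20 h. The difference between courses was 3.64 (SE 0.59, adjusted p = 0.22). At 2 h Dbp had read 189, 415 and 446 in the order sham, 300 and 600 µg/l. The sham values therefore ran low, high and low over the 3 times. Tef, a second PAR bZIP factor, read 5699 in the sham array, 3361 at 300 µg/l and 3059 at 600 µg/l at 6 h on type B, and 2313, 4003.5 and 3876 at 20 h. Again the sham array was the highest at 6 h and the lowest at 20 h, and the difference between courses was 1.58 (adjusted p = 0.16). Hlf, the third of them, had courses of -0.52, 0.09 and 0.02.

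The period genes encode the repressors that close the loop. Per3, on type B, read 1025.5 in the sham array, 666 at 300 µg/l and 304 at 600 µg/l at 6 h. At 20 h it read 73, 809 and 724. The sham array at 20 h was 8.74-fold lower than at 6 h, and both smoke arrays were higher (by 1.2-fold and 2.19-fold). The difference between courses was 3.82 (SE 0.54, adjusted p = 0.16). Per1 read 628, 453 and 321 at 6 h and 317, 729.8 and 774 at 20 h in the same order, with the smoke arrays above sham at 20 h only. Its difference between courses was 1.78 (adjusted p = 0.35). Per2 read 732, 606 and 672 at 6 h and 266, 550.3 and 694.5 at 20 h, so the smoke arrays differed little between the times and the sham array was 2.47-fold lower at 20 h. The sham arrays at 20 h of Per3, Dbp and Nr1d1 were under the filter signal of their type. Their sham folds and their differences between courses therefore depend on the pseudocount. The 600 µg/l array of Nr1d1 at 6 h was under the filter signal too, so the 600 µg/l fold of Nr1d1 depends on it as well.

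The activators and their partners ran against these. Bmal1, the activator that REV-ERB represses, read 132.5 in the sham array, 175 at 300 µg/l and 231 at 600 µg/l at 6 h. At 20 h it read 331, 239.8 and 181. Sham was thus the highest of the 3 at 20 h, a 2.09-fold step from 6 h. The 600 µg/l array was 1.22-fold lower at 20 h. The values of 132.5, 175 and 181 were under the filter signals of both types. No order is read among them, and both folds depend on the pseudocount. Npas2, a partner of BMAL1 and a further REV-ERB target, read 415, 441 and 587.5 at 6 h and 1305, 678 and 640.3 at 20 h on type B. All 3 of its courses were above 0 (1.54, 0.57 and 0.11), largest in sham, and their mean of 0.74 (SE 0.26) did not pass (adjusted p = 1). Nfil3, which competes with the PAR bZIP factors, had courses of 0.73, 0.20 and -0.35. Clock had 0.37, 0.13 and -0.24, and the repressor Cry1 0.63, -0.03 and -0.34. In these 3 genes, as in Bmal1, sham was higher at 20 h and 600 µg/l lower. Cry2 followed the period genes, with -0.39, 0.18 and 0.07.

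**Figure D2:**
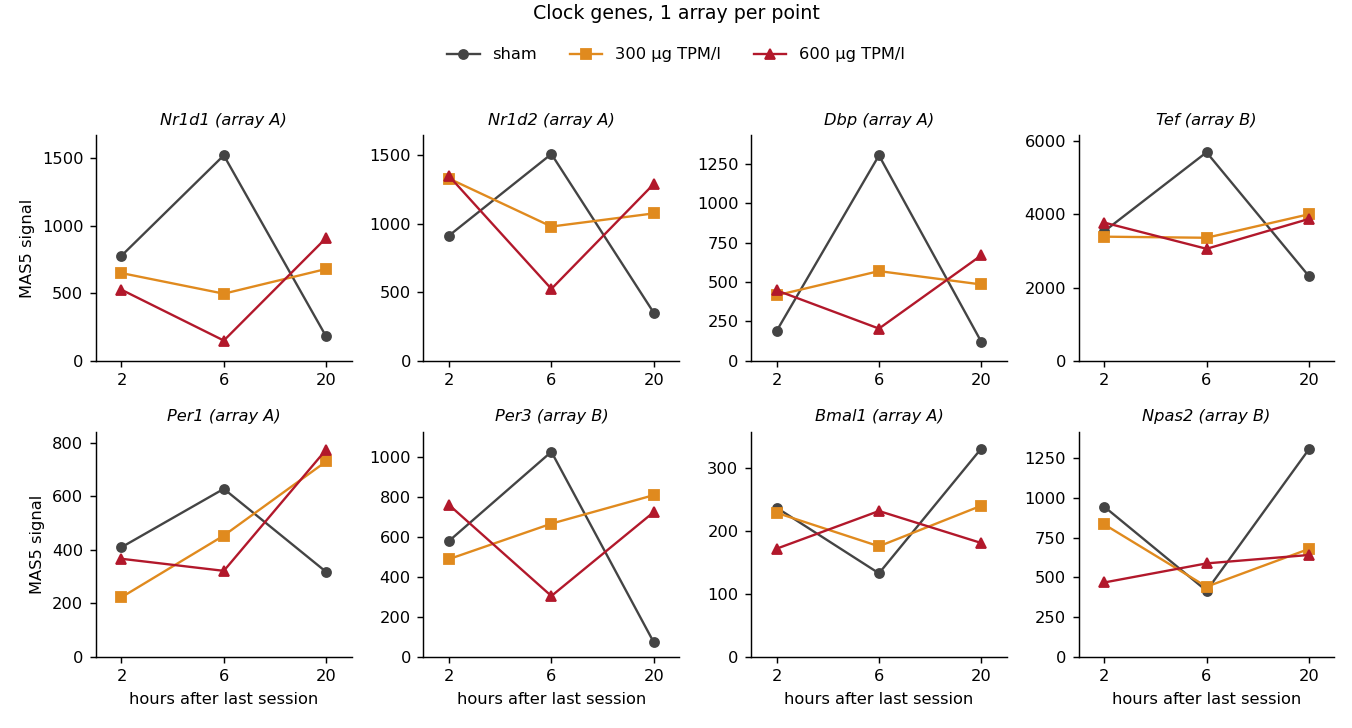
MAS5 signal (y) of 8 clock genes at 2, 6 and 20 h after the last session (x, evenly spaced), with 1 array per point and lines joining the arrays of 1 exposure. In Nr1d1, Nr1d2, Dbp, Tef and Per3 the sham array is the highest of the 3 at 6 h and the lowest at 20 h, and in Bmal1 the order is the other way round.

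Counted over the lists, 11 of the 14 core clock repressors were measured. In the sham course 4 were at least 1 log2 unit lower at 20 h (Per2, Per3, Nr1d1 and Nr1d2) and 0 at least 1 higher, beside 61 lower and 46 higher of all 10165 genes. In the 600 µg/l course 4 were at least 1 higher (Per1, Per3, Nr1d1 and Nr1d2) and 0 lower, beside 31 higher and 32 lower of all genes. The list's median was -0.73 in sham, 0.13 at 300 µg/l and 0.16 at 600 µg/l, where all genes had medians of -0.006, -0.001 and -0.007. The 4 measured activators (Bmal1, Npas2, Clock and Rora) had medians of 0.72, 0.29 and -0.17. For the difference between courses, 7 of the 11 repressors were positive and 1, Cry1, negative at an unadjusted p under 0.05, and 0 passed the adjusted test. Over all genes 300 were positive and 320 negative at that level, and over all probe sets 1235 (6.29%) in either direction.

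A wider count chose genes without any list. In 15 probe sets (0.0764%) the sham course was at least 1 lower and the 600 µg/l course at least 1 higher. Of these, 8 had a gene name, for 7 genes. They were Dbp, Nr1d1, Nr1d2 with both of its probe sets and Per3 of the clock, and Epc2, Omg and Tent5b. The opposite combination was found in 7 probe sets (0.0356%), with no clock gene among those with a name. Over all probe sets the sham course had one sign and both smoke courses the other in 4722 (24%).

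**Figure D3:**
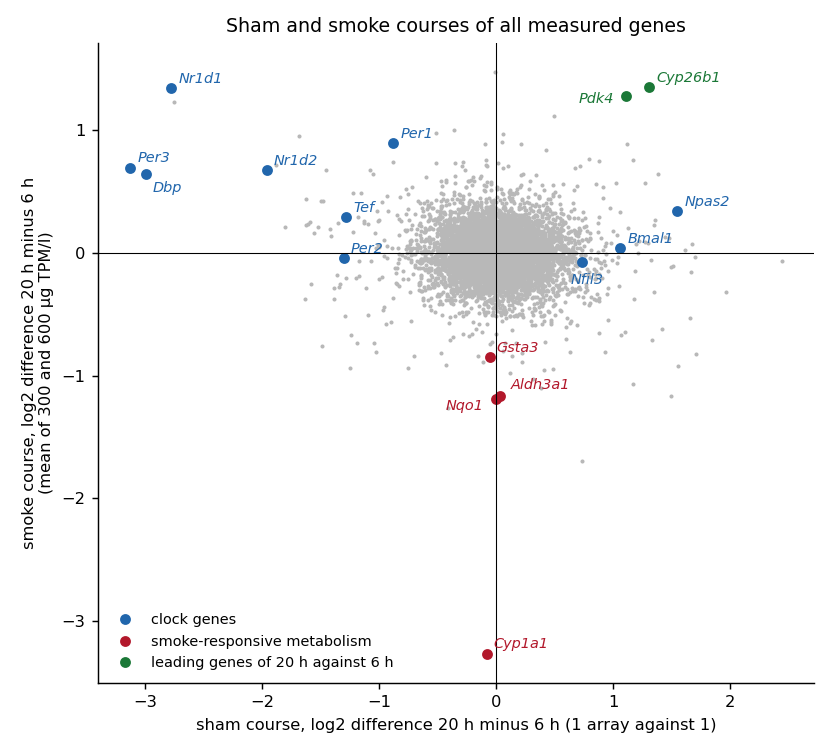
Log2 difference of 20 h minus 6 h in sham (x, 1 array against 1) against the mean of the same difference at 300 and 600 µg/l (y), with 1 point per gene for 10165 genes. Nr1d1, Nr1d2, Dbp, Per1, Per3 and Tef lie left of 0 and above it, Bmal1 and Npas2 lie to the right, and Cyp1a1 and Nqo1 lie below 0 at a sham difference near 0.

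These courses were set beside sequence, since REV-ERB and the E-box factors act through short promoter motifs. RefSeq windows of 300 bases (250 before to 50 after each annotated gene start, build GRCr8) were searched on both strands for 3 motifs that do not overlap one another in letters, and 16 of the 19 measured clock genes had a window. The E-box CACGTG was in 4 of the 16 (Nr1d1, Tef, Bhlhe40 and Bhlhe41) and in 6.42% of all 33469 windows. The ROR element core TAGGTCA was in Bmal1 and in 2.63% of all windows, and the D-box TTATGTAA, which PAR bZIP factors bind, was in Per2 and in 0.893%. A gene was counted when any of its windows held the motif, while the percentages are shares of single windows, so they are not like units. A match is a description of these letters and shows no binding. The windows of 3 of the E-box genes and of Bmal1 are printed 5′ to 3′ in the gene's direction, with the motif in capitals, because these genes lie on opposite sides of the loop. The motif starts 191 bases before the gene start in Nr1d1 (chr10:84229405-84229704, minus strand), 198 in Tef (chr7:115206577-115206876, plus strand), 220 in Bhlhe40 (chr4:143174200-143174499, plus strand) and 16 in Bmal1 (chr1:176766078-176766377, plus strand).
Nr1d1: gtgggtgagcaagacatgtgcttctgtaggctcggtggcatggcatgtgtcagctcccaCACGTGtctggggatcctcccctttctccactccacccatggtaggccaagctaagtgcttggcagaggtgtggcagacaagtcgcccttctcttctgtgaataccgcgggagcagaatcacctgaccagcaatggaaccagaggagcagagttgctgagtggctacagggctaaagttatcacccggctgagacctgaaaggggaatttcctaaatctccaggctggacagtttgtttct
Tef: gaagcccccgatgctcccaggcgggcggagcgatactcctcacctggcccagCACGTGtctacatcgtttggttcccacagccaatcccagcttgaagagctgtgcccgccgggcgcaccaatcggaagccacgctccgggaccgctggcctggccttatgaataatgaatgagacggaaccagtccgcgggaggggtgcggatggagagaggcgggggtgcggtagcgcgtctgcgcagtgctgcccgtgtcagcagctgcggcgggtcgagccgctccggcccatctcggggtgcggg
Bhlhe40: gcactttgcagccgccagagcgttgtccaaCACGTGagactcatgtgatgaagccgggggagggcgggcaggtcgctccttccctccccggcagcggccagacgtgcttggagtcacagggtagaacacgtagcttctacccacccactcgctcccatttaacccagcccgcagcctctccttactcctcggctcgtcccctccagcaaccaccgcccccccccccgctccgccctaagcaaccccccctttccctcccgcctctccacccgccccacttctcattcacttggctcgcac
Bmal1: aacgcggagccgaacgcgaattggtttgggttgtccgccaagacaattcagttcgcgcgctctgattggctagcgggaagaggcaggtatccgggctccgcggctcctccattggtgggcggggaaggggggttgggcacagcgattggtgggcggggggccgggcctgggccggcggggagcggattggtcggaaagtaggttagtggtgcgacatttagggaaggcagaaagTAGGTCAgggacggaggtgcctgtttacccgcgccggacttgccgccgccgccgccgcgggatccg
Nr1d1 and Tef had sham courses of -2.78 and -1.28, and Bhlhe40, a repressor that binds the same E-boxes, had -0.73 in sham, -0.19 at 300 µg/l and 0.38 at 600 µg/l. Bhlhe41, its paralog, had -0.58, -0.29 and 0.16. Per3, Dbp and Nr1d2, whose sham falls ranked 1, 2 and 5 among 10165 genes, were not among the 4 genes in which the E-box was found. Not every measured clock gene had a window, and a link between motif and course was not tested. Bmal1, with the ROR element core, had 1.06, 0.36 and -0.29.

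Some glucocorticoid-responsive genes, which are known to follow the daily corticosterone rhythm, were laid out like the period genes. Of 20 on the list, 16 were measured, and 8 had a positive and 0 a negative difference between courses at an unadjusted p under 0.05, with 0 passing the adjusted test. Over all 10165 genes 300 were positive and 320 negative at that level. The list's median course was -0.16 in sham, 0.25 at 300 µg/l and 0.22 at 600 µg/l. The list shares Per1, Tsc22d3, Cdkn1a and Pdk4 with the clock lists. Fkbp5, a co-chaperone of the glucocorticoid receptor, read 401 in the sham array, 324 at 300 µg/l and 425 at 600 µg/l at 6 h and 223, 474 and 669 at 20 h. Sham was lower and both smoke arrays higher at 20 h, with a difference between courses of 1.27 (adjusted p = 0.66). Tsc22d3 (GILZ), an anti-inflammatory target of the receptor, had courses of -0.62, 0.21 and 0.39. Ddit4, an inhibitor of mTOR signalling, had -0.29, 0.77 and 0.71. Klf9, a Krüppel-like factor, had -0.79, -0.12 and 0.48. Klf15, of the same family and on no list, was chosen after its values were seen. It had -0.98, 0.38 and 0.45. G0s2, an inhibitor of fat lipolysis chosen in the same way, ran against them with 0.93, -0.68 and -0.94, and its difference between courses of -1.74 (SE 0.20) did not pass (adjusted p = 0.084).

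Metallothionein Mt2A, a metal-binding protein that glucocorticoids and metals both induce, read 436 in the sham array, 964 at 300 µg/l and 1219 at 600 µg/l at 6 h. At 20 h it read 139, 716 and 1254. The sham array was lower at 20 h and the 600 µg/l array close to its 6 h value, so the distance between them was wider at 20 h. That sham value of 139 was under the filter signals of both types, so the size of this distance depends on the pseudocount. Its mean difference over the exposures was -0.58 (SE 0.21, adjusted p = 1), and the difference between courses was 1.18 (adjusted p = 0.76).

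The genes nearest to a difference shared by all 3 exposures were on none of the gene lists, apart from Pdk4, which is on the glucocorticoid, clock output and fasting lists. They were chosen after their values were seen, as the named genes with the smallest p whose brightest probe set gave that value, and none passed. Cyp26b1, the P450 that degrades retinoic acid, had at 6 h signals of 631 in the sham array, 569 at 300 µg/l and 1328 at 600 µg/l on type B. At 20 h these were 1635, 2321 and 2288. All 3 arrays at 20 h were above all 3 at 6 h, by log2 1.31, 1.94 and 0.76 within the exposures. The mean was 1.34 (SE 0.19, 2.52-fold, adjusted p = 0.42). Pdk4, the kinase that shuts pyruvate dehydrogenase when fat is burned, read 247, 325 and 247 at 6 h and 590.5, 1147 and 496 at 20 h on type B. These groups did not overlap either, and the mean was 1.22 (SE 0.19, 2.33-fold, adjusted p = 0.53). A dimmer Pdk4 probe set on type A gave 0.08.

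The next genes differed by less. Phyhd1, a dioxygenase, was at a mean of 776 ± 99.8 at 20 h and 548 ± 88.6 at 6 h (SD, n = 3 arrays), a log2 difference of 0.47 (adjusted p = 0.76). Txnip, which binds thioredoxin and limits glucose uptake, read 7879, 7951 and 7016 at 6 h and 10043, 9459.9 and 8532 at 20 h, and the difference was 0.29 (SE 0.05, adjusted p = 0.76). Its 3 courses were alike, at 0.35, 0.25 and 0.28. Ctdsp2, a small phosphatase, had a difference of 0.40, and Rap1gap, which switches off the GTPase Rap1, had 0.56. Lower at 20 h were Snx5, a sorting nexin (-0.36), the glutamine transporter Slc1a5 (-0.43) and Mplkip (-0.48), each with all 3 arrays at 20 h below all 3 at 6 h. For Stra6, the cell-surface receptor that takes up retinol, the probe sets disagreed, with 1.24 on type B and 0.28 and 0.27 on type A. For C14h5orf52, the 2 probe sets gave -1.25 and -0.20.

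**Figure D4:**
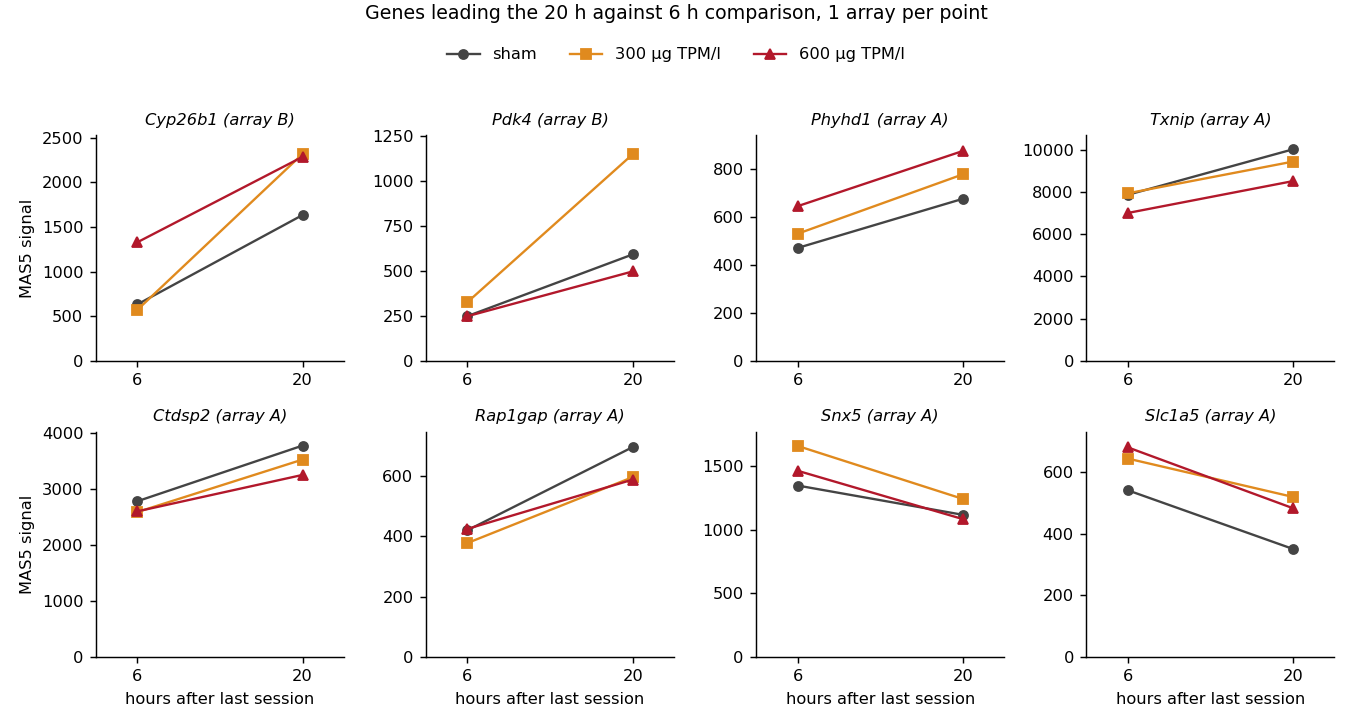
MAS5 signal (y) at 6 h and 20 h after the last session (x) of 8 genes with small p in the comparison over all exposures, with 1 array per point and lines joining the arrays of 1 exposure. Cyp26b1, Pdk4, Phyhd1, Txnip, Ctdsp2 and Rap1gap are higher at 20 h in every exposure, Snx5 and Slc1a5 lower, and none passed the adjusted test.

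Lipid genes had values in both directions. Of 14 measured genes of fasting and fatty acid oxidation, 0 passed. At an unadjusted p under 0.05, 2 of them were higher and 0 lower, beside 232 higher and 232 lower of all 10165 genes. The 2 were Pdk4 and Acadm, a dehydrogenase of medium-chain fats (0.35). Of 23 measured genes of sterol and fatty acid synthesis, 2 were higher and 2 lower at that level. Scd, the desaturase that makes oleate, read 689.8 in the sham array, 1092 at 300 µg/l and 1915 at 600 µg/l at 6 h. At 20 h it read 1343, 1774 and 2244, which was higher within each exposure, and the groups overlapped because the 6 h arrays differed by exposure. The difference was 0.60 (SE 0.21, adjusted p = 1). Fasn, the fatty acid synthase, had 0.22, the sterol sensor Insig1 -0.22 and the lipogenic factor Srebf1 -0.36, where a further Srebf1 probe set gave 0.19.

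Few stress and immune genes had a small p over all 3 exposures. Of 29 measured genes for heat shock and unfolded protein, 0 passed, 0 were higher and 2 lower at an unadjusted p under 0.05, beside 232 in each direction of all 10165 genes. They were the small heat shock protein Hspb1 (-0.50) and the endoplasmic reticulum chaperone Hspa5 (-0.28). Hspb1 read 3321, 3947 and 4827 at 6 h in the order sham, 300 and 600 µg/l, highest with the most smoke, and 3226, 2867 and 2395 at 20 h, lowest with the most smoke. The difference between courses was negative at an unadjusted p under 0.05 in 6 of the 29, beside 320 of all genes, and positive in 0, beside 300. One of the 6 was Hspb1 (-0.68), and none passed. Of 19 measured immediate early genes 1 was higher at that level (Ier5, 0.26) and 0 lower. Of 21 measured chemokine and cytokine genes there were 0 in either direction, and of 22 interferon-responsive genes 0. For the difference between courses, 3 of the 21 chemokine and cytokine genes were negative at that level and 0 positive. They were Cx3cl1 (-0.79), Il1b (-0.56) and Ccl6 (-0.46), and none passed. Among 9 measured metallothionein and acute-phase genes, 2 were lower, Mt2A and the serum amyloid Saa3 (-0.35). Lcn2, a neutrophil and airway protein that binds siderophores, read 2619.7, 8642 and 11881 at 6 h and 2964, 6136 and 11935 at 20 h, so the order of the exposures was kept. S100a9, a neutrophil calcium-binding protein, read 695, 2234 and 6636 and 1033, 2752 and 5161, again in order of exposure at both times. Hspa1b and Ciart had no named probe set that passed the filter. Cirbp, a cold-inducible RNA-binding protein whose level follows body temperature, had courses of 0.09, 0.55 and 0.05.

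**Figure D5:**
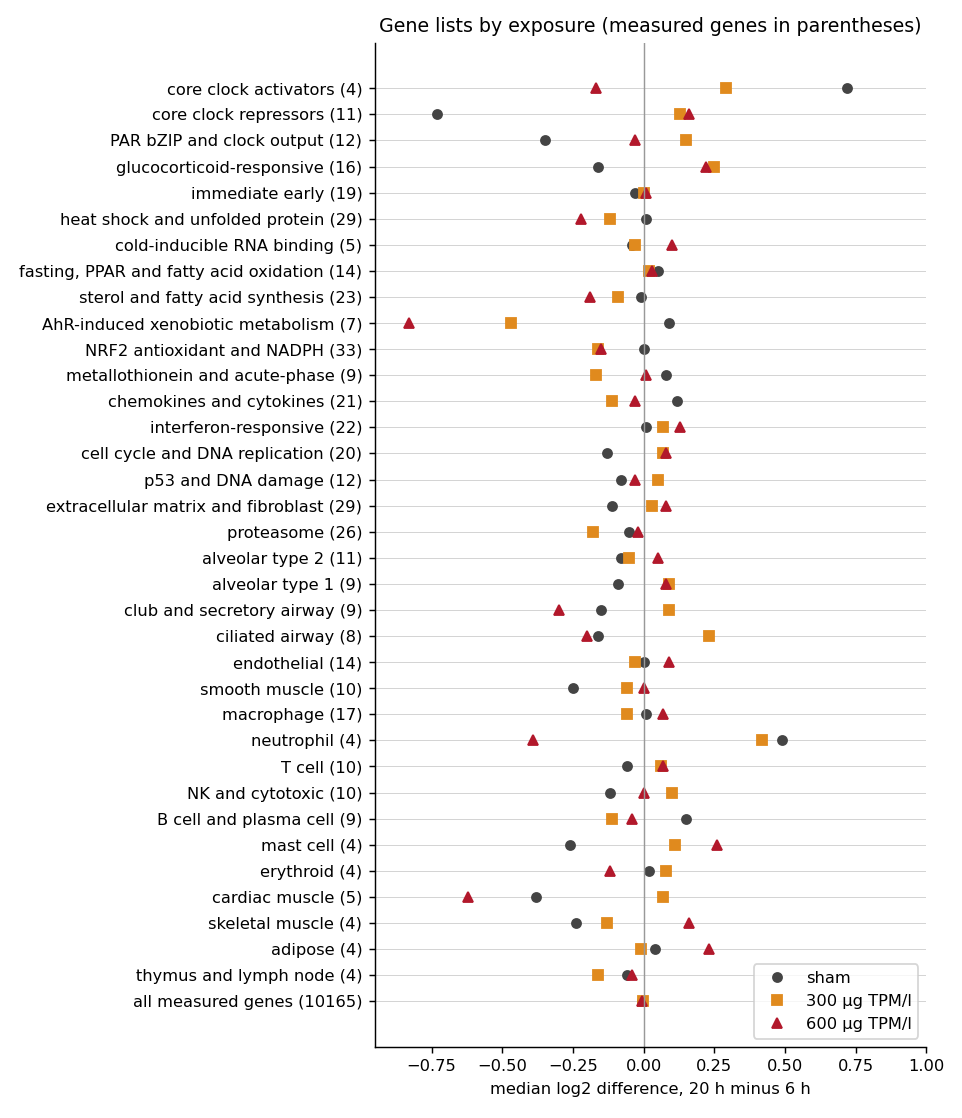
Median log2 difference of 20 h minus 6 h (x) for each gene list with at least 4 measured genes and for all measured genes (y), with 1 symbol per exposure. The AhR list lies at -0.47 and -0.83 in the smoke courses and at 0.09 in sham, and the core clock repressors at -0.73 in sham and 0.13 and 0.16 in the smoke courses.

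The summed signal of each of 18 lists of cell type markers was compared between 6 h and 20 h within each exposure. It was higher at 20 h in all 3 exposures for 1 list, lower in all 3 for 0, and higher in some and lower in others for 17. The 1 list was T cell markers, 10 of 17 measured, at 5734, 5519 and 4624 at 6 h and 6238, 5839 and 4959 at 20 h in the order sham, 300 and 600 µg/l. Alveolar type 2 markers, 11 of 11 measured, summed to 102707 to 106513 at 6 h and 98056 to 109932 at 20 h. Macrophage markers, 17 of 22, summed to 50904 to 75330 at 6 h and 49887 to 77574 at 20 h, in order of exposure at both times. Neutrophil markers, 4 of 13, summed to 1834, 3793 and 8882 at 6 h and 2855, 4564 and 6814 at 20 h, higher at 20 h in sham and at 300 µg/l and lower at 600 µg/l. Fewer cells of a type and less RNA per cell cannot be told apart in these bulk samples. Club cell markers, 9 of 13, summed to 37529 to 40657 and 34205 to 39782. Within that list Aldh1a1, a retinal dehydrogenase, was at 4679.6, 5066 and 4721 at 6 h and 3869.9, 3839 and 3884 at 20 h, with a difference of -0.31 (SE 0.08, adjusted p = 1), and Cyp4b1 had 0.19. Smooth muscle markers, 10 of 10 measured, had a median difference of -0.08. Their sums were 12342, 11035 and 10141 at 6 h and 10162, 10225 and 10734 at 20 h in the order sham, 300 and 600 µg/l. The sum was thus lower at 20 h in sham and at 300 µg/l and higher at 600 µg/l. Within that list Cnn1 had -0.40 and Tagln -0.25. Of the cardiac markers, which come from heart tissue or the muscle sleeves of the lung veins, 5 of 15 were measured and summed to 1428 to 2389 at 6 h and 1136 to 1872 at 20 h, and Myl7, an atrial myosin light chain, had -0.75. The part of such tissue in the results was not tested. The 3'/5' ratio of the hexokinase control, a sign of RNA length, was 2.80 to 4.52 at 6 h and 2.78 to 3.27 at 20 h on type A, with the 4.52 in the sham array. On type B it was 2.97 to 3.68 at 6 h, with the 3.68 again in the sham array, and 2.56 to 4.72 at 20 h, with the 4.72 at 300 µg/l. The ratio of GAPDH at 6 h was also highest in the sham array, at 1.25 on type A and 1.16 on type B, where the 600 µg/l array had 1.20 and 1.14. At 20 h the GAPDH ratio of the sham array was 1.23 on type A, again the highest, and 1.02 on type B, the lowest. The actin ratio of the sham arrays was 1.34 at 6 h and 1.43 at 20 h on type A. On type B it was 1.38 and 1.52. The sham array at 6 h is also the one in which Nr1d1, Nr1d2, Dbp, Tef and Per3 were highest at that time, and the part of RNA length in this was not tested.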

How the data were processed

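Signals are linear MAS5 intensity values that the authors made and deposited, per the submitters' processing notes, with no version or detection calls given there. With the extreme 2% at each end left out, their mean was 500.09 to 500.10 on type A and 499.95 on type B, so the deposited intensity scaling was kept. log2(signal + 50) was analysed. A probe set was kept when 3 or more of the 9 arrays of its type reached that type's 40th percentile of signal, which was 183.8 for A and 238.7 for B. This kept 9901 and 9737 probe sets. Controls were left out, and 100 probe sets present on both types were tested on A.

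Each type was fitted with limma (version 3.58.1, R 4.3.3), using lmFit and then eBayes with a trend on mean signal, with two-sided tests, and the script was tested on simulated data. The comparison of all exposures came from a model with exposure and time as additive terms, which leaves 4 residual degrees of freedom. The smoke course came from a model of smoke or sham at each time, which leaves 3. Samples were grouped by title. The lists, comparisons and genes were chosen with earlier results of these data known. Named genes are the calls, up to 4 members of a list by p, a fixed set of clock and smoke genes, and genes marked as chosen after their values were seen. Gene names came from an annotation table for the arrays, and 13811 of 19638 probe sets had 1 symbol. Alternatives covered normalization, pseudocount, filter, trend, adjustment, and arrays left out.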

Additional observations from a re-analysis of the deposited data

Results flagged for a closer look

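The smoke and sham courses of 16 named genes differed in direction or by a test. Differences are the smoke course minus the sham course on the log2 scale. Cyp1a1 passed limma's test of that difference (-3.18). The other 15 did not pass. They are listed because the sham array went one way between 6 h and 20 h and both smoke arrays went the other, with 1 sham array at each time. Over all probe sets 4722 (24%) had that layout, so the layout alone singles out no gene.

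Among metabolism genes the differences were -1.2 for Aldh3a1 and -0.77 for Gsta1. Both sham values of Aldh3a1 were under the filter signal, so no direction is read from its sham course. Among clock genes they were 4.12 for Nr1d1, 3.82 for Per3, 2.64 for Nr1d2, 1.78 for Per1, 1.58 for Tef, 0.58 for Hlf, 0.51 for Cry2 and -0.82 for Cry1. Among genes that respond to glucocorticoids they were 1.27 for Fkbp5, 1.03 for Ddit4 and 0.92 for Tsc22d3. Klf15 had 1.39 and G0s2 had -1.74.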

How the results depend on the processing

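The count of calls for 20 h against 6 h was 0 and became 5 without the sham arrays, and 0 to 4 without single arrays, the 4 without sham at 20 h. Without the sham arrays Cyp1a1 (-3.27, adjusted p = 1.7e-04) and Nqo1 (-1.19, 0.024) passed, and without sham at 20 h Cyp1a1 did (-3.52, 0.011). For the smoke course against the sham course, 1 call became 0 with no filter, 0 with only the 6 h and 20 h arrays and 3 with adjustment within each type, where G0s2 passed (0.042). It was 0 to 7 without single smoke arrays (6 without 300 µg/l at 6 h, 7 without 600 µg/l at 6 h, 0 without either at 20 h). Without 300 µg/l at 6 h, Nr1d1 (4.85, 0.0039), Nr1d2 (3.06, 0.0039), Dbp (4.28, 0.0039) and Per3 (4.33, 0.013) passed, and without 600 µg/l at 6 h Nr1d1 (3.39, 0.019), Nr1d2 (2.22, 0.028) and Dbp (3.0, 0.028) did. A fit without 1 smoke array assumes that the lone one varies like the others, and its spread comes from the other times alone, without the distance between concentrations at that time, so these p-values support nothing. For the smoke course, whose alternatives were chosen after seeing the data, 5 calls became 3 with median scaling and 1 with no filter, 1 with no trend and 1 with only the 6 h and 20 h arrays. It was 1 to 6 without single arrays, the 1 without 300 µg/l at 6 h or either concentration at 20 h. Of the sham course, 277 probe sets past 1 log2 unit became 78 with the pseudocount 4 times as large, 736 with no filter and 111 at the 60th percentile, alternatives also chosen after seeing the data. The cause of these changes was not tested. All 67 named gene results kept their direction under every alternative that could be fitted, and 22 of 720 list medians moved by more than their spread. Filter, trend, adjustment and leaving out all 2 h arrays cannot change a gene's value, so these could not have reversed any direction. The comparison over all exposures was matched by exposure, and the labels give no replicate numbers for a further pairing. Leaving out a sham array gives no test of the difference between courses. Dim probe sets near the filter limit the precision.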
